A study of Mus musculus with 3 samples.

Results

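The lysosomal cathepsins, the asparaginyl endopeptidase legumain and the protease inhibitor cystatin C were examined as a set of 10 genes chosen by name: Ctsa, Ctsb, Ctsc, Ctsd, Ctsh, Ctsl, Ctss, Ctsz, Lgmn and Cst3. All 10 were found among the 55536 Ensembl genes of each gene table, of which 22015 are protein-coding genes of the nucleus. The RNA came from bone marrow-derived macrophages of C57BL/6J mice that had received 100 ng/ml Lipid A, the part of bacterial lipopolysaccharide recognised by the receptor TLR4, for 10 minutes. Only the cytosolic fraction was sequenced, as ribosome-depleted total RNA from 1 µg of starting material, in 1 group of 3 biological replicates. Age and sex were not collected, no genotype other than the strain is given, and all 3 replicates carry the same donor identifier. The labels do not state whether the replicates were separate animals or cultures, so the spread between these 3 samples may be technical. The p-values below compare genes within these libraries or set their counts against counting error. They do not extend to other animals or cultures. The group had no untreated counterpart, and each value is therefore a level after stimulation, not a response to it.

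Lysosomal cathepsins are made as inactive proenzymes, tagged with mannose 6-phosphate in the Golgi, carried to acidic compartments by mannose 6-phosphate receptors and activated there by proteolysis. In macrophages they degrade phagocytosed and autophagic cargo, trim antigens and the invariant chain for presentation on MHC class II, and cleave endosomal Toll-like receptors. Cathepsins B, C, H, L, S and Z are cysteine proteases of the papain family, legumain is a cysteine protease of another family that cuts after asparagine, cathepsin D is an aspartic protease and cathepsin A is a serine carboxypeptidase. Cystatin C is a secreted inhibitor of papain-family proteases and, through a separate site, of legumain.

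The labelled cell type was checked against its markers. All 12 macrophage markers reached 1 TPM (a share of RNA molecules that allows for transcript length) in every library, with a median of 232 TPM ± 15.2 (SD, n = 3), and Lyz2 (4969.7 TPM), C1qb (773), Mpeg1 (728) and Cd68 (716) were the highest. Of the markers of other cells, 4 of 11 for neutrophils, 2 of 8 for osteoclasts, 1 of 8 for dendritic cells and 1 of 7 for T and NK cells (Cd4, 23.9 TPM ± 4.44) reached that level in every library, and none of those for B cells, mast cells or stroma did. The neutrophil markers at that level were S100a9 (17.6 TPM), S100a8 (11.8), Mmp8 (6.02) and Ngp (2.64), while Ly6g had no count. Of the 8 that could be tested, 6 ranged 1.5-fold or more between libraries, beside a median range of 1.16-fold over all genes tested. Among these 6, Elane (counts of 3, 22 and 13), Mpo (11, 47 and 46) and Prtn3 (26, 59 and 30) had few counts. The share of all genes at that range was not computed. The osteoclast markers at that level were Itgb3 (4.91 TPM) and Acp5 (1.29), while Calcr had no count. Estimated counts totalled 33978273, 54778530 and 43237143 in replicates 1, 2 and 3, and 3 counts on an effective length of 1 kb, the limit that a count of 0 allows, corresponded to 0.045, 0.029 and 0.040 TPM. In bulk RNA, fewer cells of a type and less RNA per cell cannot be told apart.

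Transcript pairs of 4 members carry much of what follows, because their main annotated forms share most of the sequence of at least 1 of the pair. The stretches below were taken from GENCODE M21 transcripts on mm10, 5′ to 3′ on the strand of the gene. Capitals mark bases that the named transcript has and its partner lacks. For Ctsd (minus strand) these are the 18 bases at chr7:142377333-142377350, at the end of exon 6, all of them coding and a multiple of 3. For Ctsh (plus strand) they are the 106 bases of exon 3 at chr9:90061519-90061624, coding and not a multiple of 3. For Ctss (plus strand) they are the 3 coding bases at chr3:95529434-95529436, at the start of exon 2. For Ctsb (plus strand) they are the 90 bases at chr14:63135518-63135607 with which the retained intron transcript Ctsb-202 begins.
Ctsd-202: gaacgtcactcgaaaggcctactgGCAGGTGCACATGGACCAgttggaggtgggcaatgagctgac
Ctsd-201: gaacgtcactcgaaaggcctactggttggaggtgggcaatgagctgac
Ctsh-201: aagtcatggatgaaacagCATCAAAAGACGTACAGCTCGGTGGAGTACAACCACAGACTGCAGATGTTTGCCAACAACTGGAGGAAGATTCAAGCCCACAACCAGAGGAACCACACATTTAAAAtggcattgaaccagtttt
Ctsh-202: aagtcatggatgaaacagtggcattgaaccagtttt
Ctss-201: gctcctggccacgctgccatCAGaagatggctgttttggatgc
Ctss-202: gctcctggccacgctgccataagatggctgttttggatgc
Ctsb-202: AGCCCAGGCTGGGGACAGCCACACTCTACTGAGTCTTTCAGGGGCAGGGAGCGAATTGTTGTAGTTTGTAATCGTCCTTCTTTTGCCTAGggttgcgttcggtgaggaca

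The 10 genes were among the abundant messages of these macrophages. Their deposited TPM had a median of 435, against 7.58 for the 9152 protein-coding genes that reached 1 TPM in every library, and 7 of them ranked within the top 100 protein-coding genes. Together they made up 3.87%, 4.01% and 4.09% of protein-coding TPM in replicates 1, 2 and 3 (3.99% ± 0.109, SD, n = 3). Cathepsins D and B alone held 68.2% ± 0.322 of the summed TPM of the 10 genes. The highest member stood 77.3-fold above the lowest.

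The aspartic protease gene Ctsd (ENSMUSG00000007891.16, chr7:142375911-142388038, minus strand) was the highest, at 3834, 3920 and 4415 TPM (4056 ± 314). Its protein is a main endopeptidase of the lysosome. Replicate 3 was the high library and replicates 1 and 2 lay close together. It ranked 5 among protein-coding genes by TPM and 4 by estimated count.

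Ctsb (ENSMUSG00000021939.8, chr14:63122462-63145923, plus strand) followed at 2375, 2541 and 2738 TPM (2551 ± 182). Cathepsin B cuts both within proteins and as a dipeptidase from their C-terminal end. Its 3 values did not overlap with those of Ctsd. By count the order of the pair was the other way round: Ctsb ranked 2 and supplied 48.1% ± 1.06 of all counts on the 10 genes. Its main transcript is 4743 bases long, against 2127 for Ctsd, and TPM divides by length.

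Ctss (ENSMUSG00000038642.10, chr3:95526786-95556403, plus strand) was at 934, 878 and 979.8 TPM (931 ± 51.0). Cathepsin S, which keeps its activity at neutral pH, makes the last cuts in the invariant chain in many antigen-presenting cells. The 3 libraries were close, with replicate 2 the lowest.

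Ctsz (ENSMUSG00000016256.10, chr2:174427493-174439039, minus strand), which encodes a carboxypeptidase of the papain family, was at 474, 492 and 501.7 TPM (489 ± 14.0). On this scale it varied least of the 10, with a coefficient of variation (SD over mean) of 2.86%. On counts scaled by TMM, described below, Ctss varied least (1.93%), and Ctsz was at 3.99%.

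Ctsl (ENSMUSG00000021477.9, chr13:64359337-64370890, minus strand) was at 169, 188 and 282 TPM (213 ± 60.7). Cathepsin L is an endopeptidase of broad specificity. Replicates 1 and 2 were near each other and replicate 3 was well above both, which gave Ctsl the widest spread of the 10, a coefficient of variation of 28.5%.

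Ctsh (ENSMUSG00000032359.14, chr9:90054152-90076089, plus strand), encoding an aminopeptidase, was at 131, 113 and 137 TPM (127 ± 12.4). Ctsc (ENSMUSG00000030560.17, chr7:88278085-88310888, plus strand) was the lowest member at 58.8, 45.7 and 52.9 TPM (52.5 ± 6.61). Cathepsin C removes dipeptides from N-termini and in this way activates the serine proteases of granulocyte and lymphocyte granules. For both genes replicate 2 was the lowest library.

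Lgmn (ENSMUSG00000021190.14, chr12:102394084-102439813, minus strand) was at 537, 620 and 643 TPM (600 ± 55.5). Legumain opens antigens for presentation and takes part in the processing of cathepsins to their mature chains. Replicate 1 lay below the other libraries.

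The serine carboxypeptidase gene Ctsa (ENSMUSG00000017760.16, chr2:164832873-164841032, plus strand) was at 352, 384 and 408 TPM (382 ± 27.8). Cathepsin A is also the protective protein that holds β-galactosidase and neuraminidase 1 in a lysosomal complex. Its replicate 1 was the lowest.

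The inhibitor gene Cst3 (ENSMUSG00000027447.6, chr2:148871722-148875692, minus strand) was at 289, 257 and 321 TPM (289 ± 31.9). Replicate 2 was the lowest and replicate 3 the highest. The 6 papain-family genes and Lgmn summed to 4679, 4877 and 5334 TPM, so that Cst3 stood at 0.0618, 0.0527 and 0.0602 of the proteases it is known to inhibit (0.0582 ± 0.00483). Put the other way, these 7 protease messages were 17.3 ± 1.49 times as abundant per length as the inhibitor message, and Ctsb supplied 51.4% ± 0.670 of them. A ratio of RNA levels gives no ratio of proteins.

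**Figure D1:**
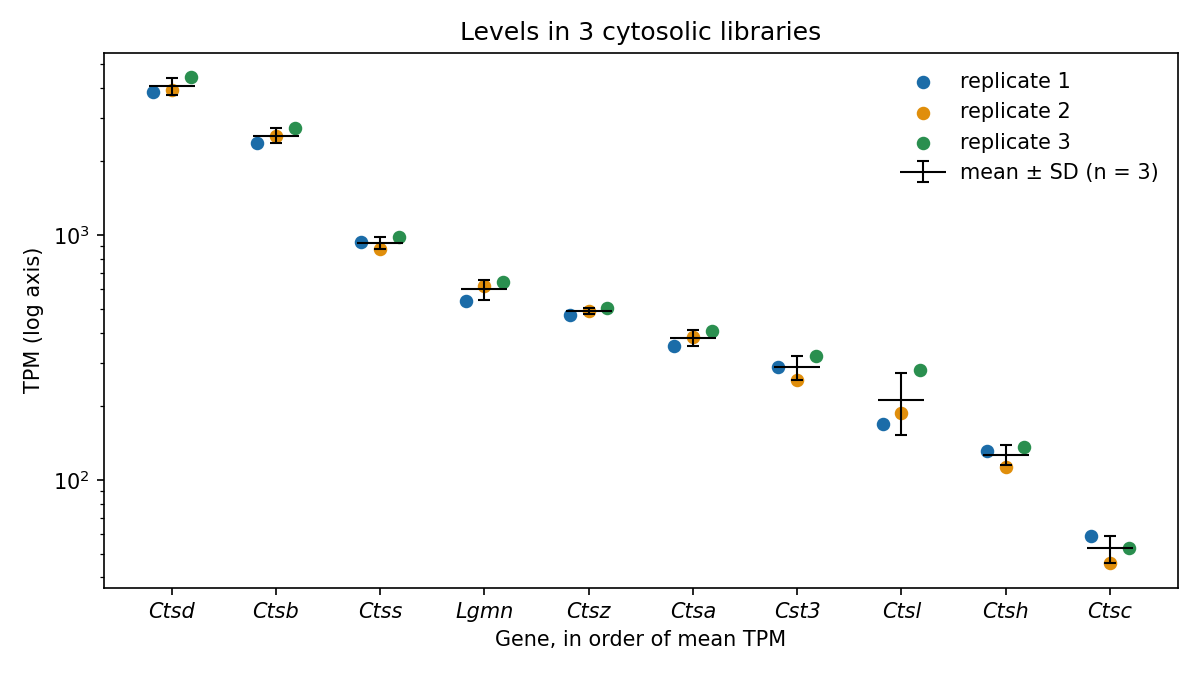
TPM (log axis) of the 10 genes in the 3 libraries (coloured points), with the mean and SD over libraries (black bar and whiskers, n = 3). The genes run from Ctsd at 4056 TPM to Ctsc at 52.5, and replicate 3 of Ctsl (282 TPM) stands above its other libraries.

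The order of the levels was the same in every library. Each of the 9 pairs of neighbours in the order Ctsd, Ctsb, Ctss, Lgmn, Ctsz, Ctsa, Cst3, Ctsl, Ctsh, Ctsc differed in 1 direction in 3 of 3 libraries. Each pair gave p = 0.25 when the signs of its differences in log2(TPM + 1) were permuted exactly (two-sided), the smallest that 3 libraries allow, so no pair could pass a threshold of 0.05. The closest pair was Lgmn and Ctsz, 0.29 ± 0.10 apart on the log2 scale. Cst3 and Ctsl were 0.47 ± 0.29 apart on average but 0.19 in replicate 3, and Ctsl and Ctsh were 0.36 apart in replicate 1 and 1.04 in replicate 3. Both of the uneven gaps involve Ctsl. The largest gap, 1.45 ± 0.10, separated Ctsb from Ctss.

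The authors' tables give a credibility interval for each TPM, at a level not given in the sources used here. Its bounds lay between 0.281% and 3.58% from its middle over the 10 genes and 3 libraries. The intervals did not bracket every TPM given above. For Ctsd, Ctsb, Ctss, Lgmn and Ctsz the TPM was above the upper bound in every library. In replicate 1 of Ctsd it was 3833.65, against bounds of 3767.73 and 3793.4. For Ctsa, Cst3, Ctsl, Ctsh and Ctsc it lay within the interval in every library. For each gene the coefficient of variation between libraries was larger than the distances of its own intervals, which cover the quantification of 1 library only.

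Differences between replicates were therefore read from rounded estimated counts scaled by TMM, a factor that aligns the bulk of genes between libraries. A chi-square test against counting error, adjusted by Benjamini-Hochberg over 13494 genes, called all 10 members at 0.05, with a smallest chi-square statistic of 59.3 (Ctss, adjusted p = 1.25e-12). Of all genes tested, 49.2% were called. Among the 677 genes with a mean count of 10000 or more, as 9 of the 10 members have (the deep genes), the share was 93.2%, so that the members' calls were near what deep genes give. Their sizes were small: the highest library exceeded the lowest by a median of 1.12-fold, against 1.10-fold for the deep genes. The edgeR coefficient of variation of the gene was under the trend for genes of like abundance in 8 of 10 members. The share of other genes under their trend was not computed, so this count does not set the members apart.

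Ctsl was the exception in size. Its TMM-scaled counts were 532, 624 and 857 CPM (counts scaled to library size) in replicates 1, 2 and 3, a 1.61-fold range. Of the 9 deep members 1, Ctsl, reached 1.5-fold, as did 2.36% of the deep genes, among which it ranked 10 of 677. Its edgeR coefficient of variation was 16.6%, against 8.82% on the trend. Without replicate 3 the range was 1.17-fold, and without replicate 1 it was 1.37-fold.

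Other measurements moved with the high library of Ctsl. All 8 genes of cell division, a list added with earlier results of these data in view, were called and highest in replicate 3, as were 17.7% of all genes tested. They had summed TPM of 71.1, 81.8 and 140.9 and a median range of 3.27-fold. Mki67 was at 54.9, 57.3 and 157 TMM-scaled CPM. Igf2r, the large mannose 6-phosphate receptor, was at 291, 374 and 440.1 TMM-scaled CPM, a 1.51-fold range. Of the 8 osteoclast markers 5 could be tested and 4 of these were highest in replicate 3 after TMM scaling, as were 34.7% of all genes tested. Itgb3, the other of these, was highest in replicate 2. Summed deposited TPM over the list was 5.86, 7.82 and 9.83. Of the 12 macrophage markers 7 were highest in replicate 3, among them Itgam at 197, 198 and 314 TMM-scaled CPM, and 5 were highest in replicate 1. Ctsk, the collagen-degrading cathepsin of osteoclasts, was at 0.86, 0.79 and 1.70 TPM, so its own message stayed near 1 TPM in all libraries. The part of these in the result for Ctsl was not tested.

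Ctsc varied next most, at 261, 204 and 215 TMM-scaled CPM, a 1.28-fold range with replicate 1 the highest. Its edgeR coefficient of variation was 10.3%, against 8.16% on the trend, and without replicate 1 the range was 1.05-fold. Lgmn had a range of 1.17-fold and was lowest in replicate 1. Ctsh and Cst3 had ranges of 1.14-fold and 1.13-fold, both lowest in replicate 2. The ranges of Ctsa, Ctsb, Ctsz, Ctsd and Ctss were between 1.04-fold and 1.11-fold.

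**Figure D2:**
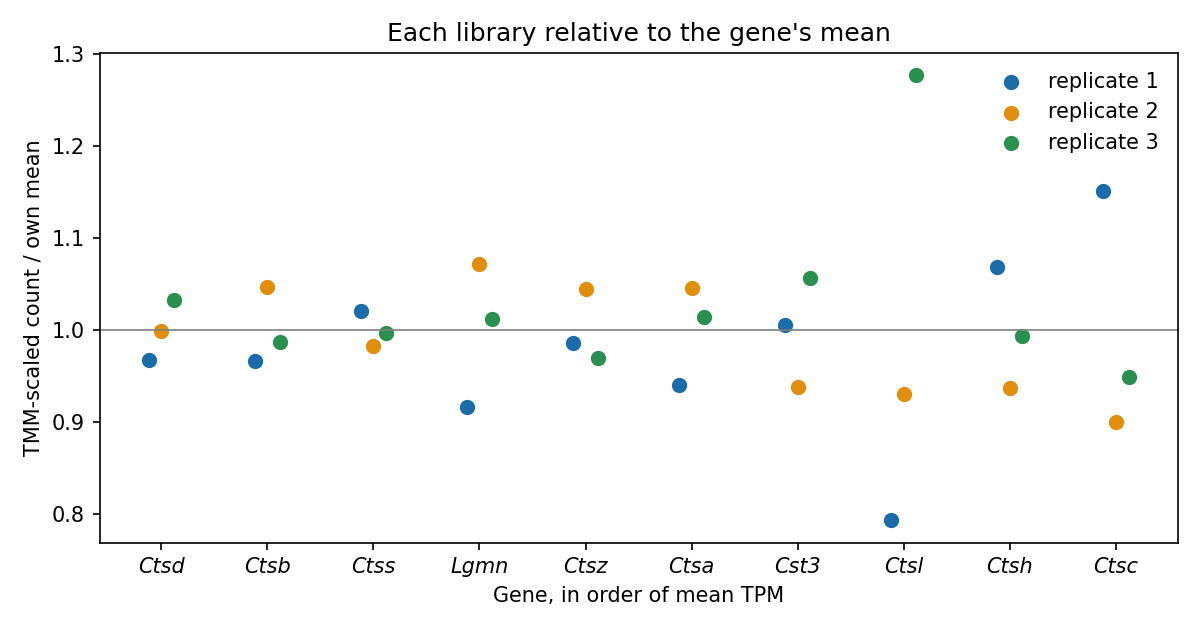
TMM-scaled count of each library divided by the gene's own mean over 3 libraries, for the 10 genes in order of mean TPM; the grey line marks 1. Ctsl lies between 0.793 in replicate 1 and 1.28 in replicate 3, and Ctsc reaches 1.15 in replicate 1, while Ctss stays between 0.983 and 1.02.

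**Figure D3:**
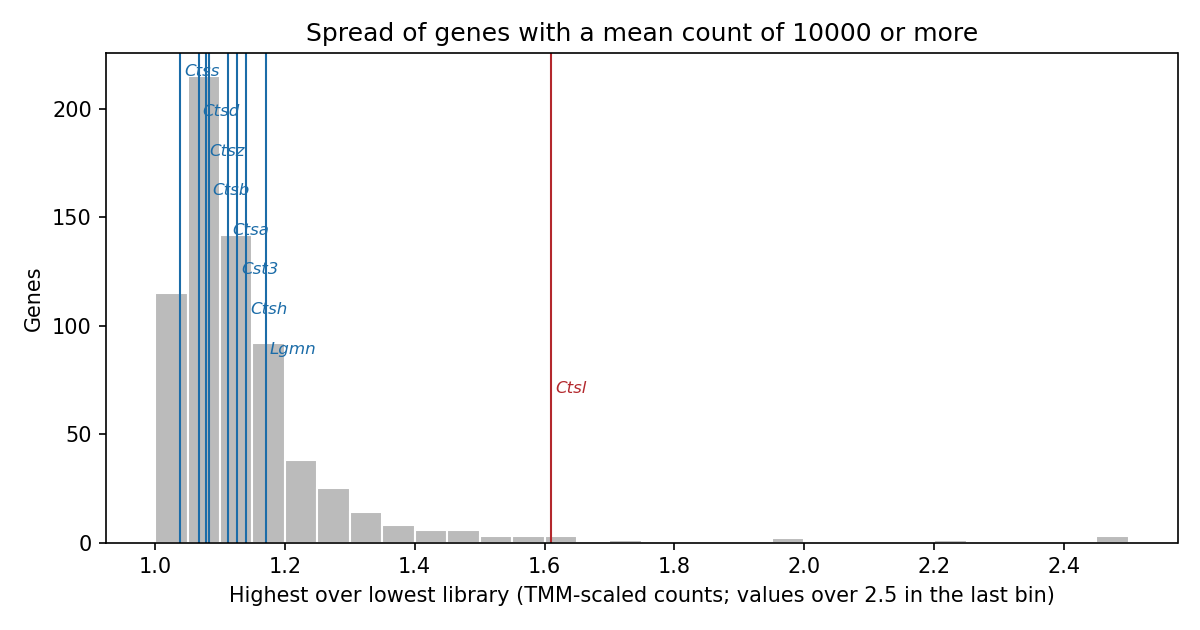
Number of genes (vertical axis) by the ratio of the highest to the lowest library for the 677 genes with a mean count of 10000 or more, with lines at the 9 members that reach that count. Of these members 8 fall between 1.04 and 1.17, where most genes lie, and Ctsl falls at 1.61.

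The apparent high library of the set depended on the scale. On deposited TPM, 9 of 10 members were highest in replicate 3, as were 72.8% of the deep genes. After TMM scaling 3 of 10 were (Ctsd, Ctsl and Cst3), and 35.9% of the deep genes were. The median gene was 0.12 higher in replicate 3 than in replicate 1 and 0.13 higher than in replicate 2 on the log2 scale of deposited TPM, and protein-coding genes held 23.6%, 23.5% and 25.6% of all TPM. Ctsl was highest in replicate 3 on both scales.

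The series also holds a second quantification of the same reads, made without a genome alignment. Both were rescaled so that protein-coding genes of the nucleus summed to the same total, because in the second these genes held 17.2%, 8.95% and 8.11% of TPM in replicates 1, 2 and 3. No member differed by more than 1 on the log2 scale between them, and 3.25% of 6176 genes did. The largest difference was that of Ctsb, 0.37 ± 0.03 higher in the second, although its second count was only 1.05 to 1.06 times the first. The other 9 lay between -0.08 (Ctsd) and 0.06 (Ctsl), and the order of the 10 genes was the same.

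Below the level of the gene the quantifications differed more. GENCODE M21 annotates 54 transcripts for the 10 genes, of which 20 are of the retained intron type. Both quantifications named the same main transcript for 10 of 10 genes. It held 80% or more of the gene's TPM for 6 genes in the first (Ctsz, Cst3, Ctsl, Ctsb, Ctss and Ctsc) and for 5 in the second. Ctsz has only 1 annotated transcript, and Cst3-201 held 99.7% ± 0.0921.

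**Figure D4:**
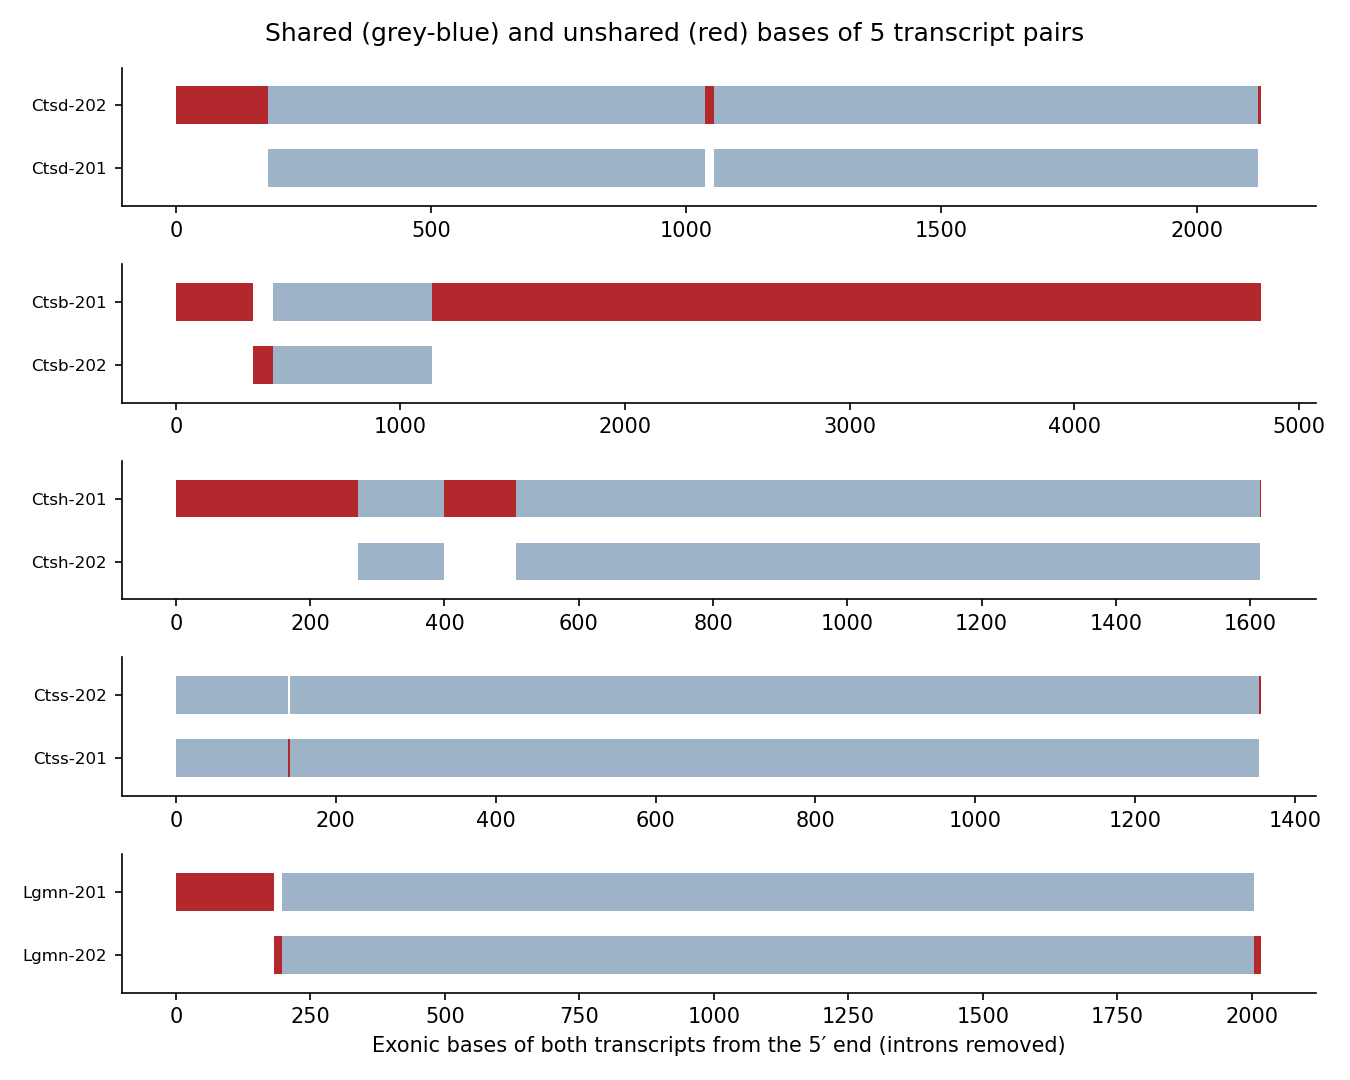
Exonic bases of 5 transcript pairs from the 5′ end with introns removed (horizontal axis, bases); grey-blue bases are in both transcripts and red bases in only 1. All 1922 bases of Ctsd-201 and all 1238 bases of Ctsh-202 lie in their partners, while 3692 bases at the 3′ end of Ctsb-201 are its own.

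Ctsd showed the widest disagreement. Ctsd-201, which lacks the 18 capital bases printed above and 181 bases at the 5′ end, held 31.9%, 35.9% and 29.3% of Ctsd TPM in the first quantification (32.4% ± 3.30). In the second it held 1.79%, 0.639% and 0.533%. The libraries did not overlap between the quantifications, and in the second replicate 1 stood above the others. Every base of Ctsd-201 is also in Ctsd-202, and only a read that joins the bases on either side of the 18 is its own. The difference between the forms is 6 codons, with coding lengths of 1212 and 1230 bases.

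For Ctsb the second quantification gave the shorter form a larger share than the first did. The retained intron transcript Ctsb-202 held 6.92%, 6.11% and 10.8% in the first (7.95% ± 2.52) and 35.2%, 36.0% and 34.8% in the second. It is 801 bases long, of which 710 (88.6%) are also in Ctsb-201, and its own bases are the 90 capitals above and 1 more at its end. By share of estimated counts in the first quantification it held 1.09% ± 0.377. The level of Ctsb, which was 0.37 higher in the second quantification, sums over these transcripts, and the part of their split in it was not tested.

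Ctsh-202, annotated as a target of nonsense-mediated decay, held 38.7%, 42.3% and 38.8% in the first quantification (39.9% ± 2.07) and 23.2%, 27.5% and 20.3% in the second. It lacks exon 3, the 106 capitals above, and also 271 bases at the 5′ end and 2 at the 3′ end of Ctsh-201. Its annotated coding part is 123 bases against 999 in Ctsh-201. Replicate 2 was the highest in both quantifications. All its bases lie in Ctsh-201, so the reads that are its own are those joining exon 2 to exon 4.

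The pair in Ctss gave the same shares in both. Ctss-201, with the 3 extra bases CAG at the start of exon 2, held 13.1%, 14.0% and 13.3% in the first quantification (13.4% ± 0.468) and 13.1%, 14.1% and 13.4% in the second. Both transcripts are 1355 bases long, and their coding lengths are 1023 and 1020 bases.

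Lgmn-201 and Lgmn-202 have coding parts of the same length, 1305 bases, and differ at the 5′ end, where 183 and 14 bases are their own, and by 14 bases at the 3′ end. Lgmn-202 held 46.3% ± 0.600 of Lgmn TPM in the first quantification and 32.7%, 29.5% and 30.7% in the second. For Ctsa, the gene with the most annotated transcripts of the 10 (16), the main form Ctsa-202 held 60.5% ± 0.833 and 59.1% ± 2.51. The partial transcript Ctsa-210 held 27.3% ± 1.02 in the first and 17.9% ± 1.41 in the second. By share of estimated counts in the first they held 81.9% ± 0.723 and 6.85% ± 0.334, with which 7 genes had a main transcript at 80% or more. Ctsl-201 held 96.1% ± 3.11 and 84.2% ± 8.60, and Ctsc-201 held 84.6% ± 3.91 and 75.7% ± 5.58.

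**Figure D5:**
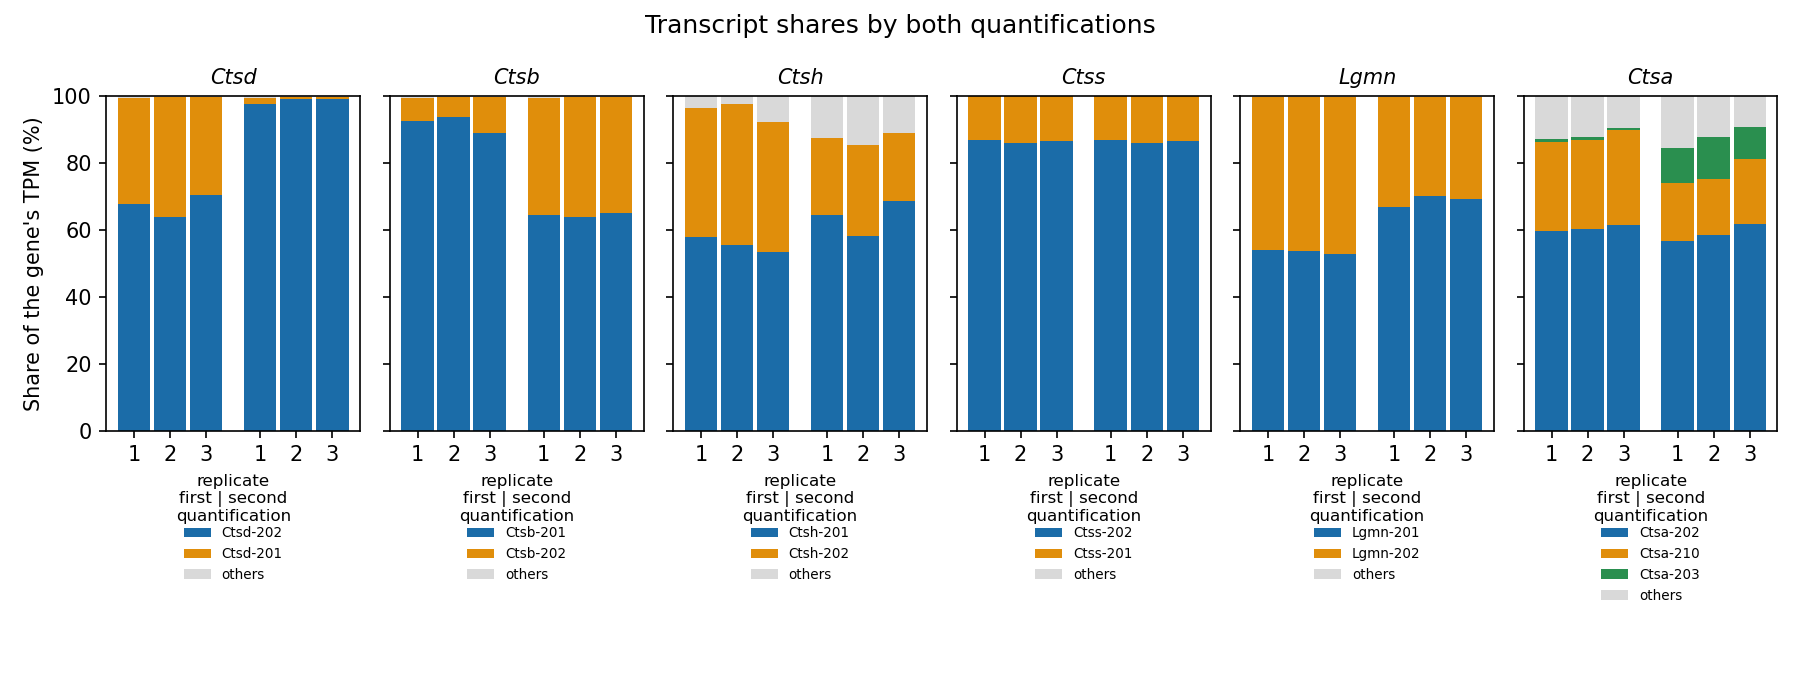
Share of each gene's TPM (vertical axis, percent) held by its transcripts in each library, by the first (left 3 bars) and second (right 3 bars) quantification, for 6 genes; transcripts under 10% by both are pooled as others. Ctss has the same split in both, while Ctsd-201 goes from 32.4% on average to under 2% and Ctsb-202 from 7.95% to 35.3%.

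Transcripts of the retained intron type were summed for the 7 members that have them. Their median share was 1.02% in the first quantification and 2.74% in the second. Over 3870 genes at 5 TPM or more, the mean of the median of each library was 1.56% ± 0.637 in the first and 2.57% in the second. The members' median was instead taken over each gene's mean, so the values are not like for like and give no order. The highest were Ctsb, at 8.18% ± 2.47 in the first and 35.5% ± 0.620 in the second, and Ctsa, at 5.73% ± 1.20 and 7.24% ± 1.96. In the first quantification Ctsc had 2.19% in replicate 1, its highest library by level, and 0.548% and 0.321% in the others. The share by the first quantification was highest in replicate 1 for 5 of the 7, as it was for 70.0% of the 3870 genes. The part of this in the level of Ctsc was not tested.

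The other genes of the protease system were read from lists. Of 15 other papain-family genes, 2 reached 1 TPM in every library: Ctso at 9.53 TPM ± 0.512 and Ctsf at 3.84 ± 0.474. Ctsk averaged 1.12 ± 0.506 and Tinagl1 0.023, and 10 of the 15, among them Ctsll3 and Tinag, had no count in any library. Each of the 6 papain-family members was above every other gene of that family that was listed. Of the 3 that could be tested between libraries only Ctsk was called, highest in replicate 3, on counts of 72, 105 and 166. Of all genes tested 49.2% were called, and 17.7% were called and highest there.

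Among 12 aspartic and serine proteases related to cathepsins D and A, 6 reached 1 TPM in every library. The carboxypeptidase gene Scpep1 was the highest at 143 TPM ± 10.6. The tripeptidyl peptidase gene Tpp1 followed at 84.9 ± 4.60, the prolylcarboxypeptidase gene Prcp at 33.2 ± 2.18 and Tpp2 at 9.92 ± 0.721. None was at the level of Ctsa (382 TPM) or Ctsd. Ren1 had no count, and Bace2 had counts of 2, 0 and 1, listed at 0 TPM. Of 7 tested, 5 were called (49.2% of all genes), with a median range of 1.08-fold.

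Cst3 was not the only inhibitor message of that size. Of 26 other inhibitors matched, 5 reached 1 TPM in every library, and the cytosolic inhibitor gene Cstb was at 281, 306 and 346 TPM (311 ± 32.5), beside 289 ± 31.9 for Cst3. Serpinb6a, a serpin that blocks serine proteases and cathepsin G, was at 252 ± 32.5. Ctla2b, whose product resembles the cathepsin L propeptide, was at 13.3 ± 1.23, and the cystatin F gene Cst7 at 3.30 ± 0.493. Ctla2b has a near copy, Ctla2a, so the split between them is uncertain. Kng1 and Spink5 had no counts. All 8 inhibitors tested were highest in replicate 3 after TMM scaling, as were 34.7% of all genes tested, and 5 of the 8 were called, beside 49.2% of all genes, among them Cstb (1.19-fold) and Serpinb6a (1.17-fold). Cst3 was also highest there (1.13-fold). The same library was the high one for the cell division genes, whose part was not tested.

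All 22 genes listed for sorting and activation of lysosomal proteases reached 1 TPM in every library. Psap, the saposin precursor, stood at 4815 TPM ± 274, above Ctsd. The progranulin gene Grn was at 762 ± 35.6 and the membrane protein genes Lamp1 and Lamp2 at 707 ± 22.9 and 144 ± 8.10. The lowest were the sorting adaptor Gga3 at 6.81 ± 0.364 and the receptor Sorl1 at 8.78 ± 1.18. Between libraries 16 of 22 were called, 5 of them highest in replicate 1, 5 in replicate 2 and 6 in replicate 3. Of all genes tested 49.2% were called, in parts of 19.9%, 11.6% and 17.7% by the highest replicate. The median range was 1.07-fold, against 1.16-fold over all genes tested, and Igf2r, given above, was the 1 gene of the list at 1.5-fold or more.

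The 12 partners and substrates also all reached 1 TPM in every library, and all 12 were called between libraries, 9 of them highest in replicate 1, beside 49.2% of all genes called and 19.9% called and highest there. Unc93b1, which carries endosomal Toll-like receptors to the compartments where cathepsins cut them, was at 176 TPM. App, whose protein is cut in endosomes, was at 115 TPM, the invariant chain gene Cd74 at 108 TPM and Tlr7 at 71.3 TPM, and the lowest were H2-DMa at 9.34 TPM and H2-DMb1 at 9.18, which encode the class II peptide editor. Cd74 was below Ctss, whose protein cuts the invariant chain. Of 6 transcription factors of lysosomal and macrophage genes, Spi1 was at 65.7 TPM, Tfe3 at 26.9, Tfeb at 11.0 and Tfec at 10.5, and the lowest were Mitf at 9.93 and the class II activator Ciita at 0.787. Of these 6, 4 were called, all highest in replicate 1, beside the same shares of all genes.

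The 9 granule proteases that cathepsin C matures were all under 1 TPM in every library, with Prtn3 the highest at 0.727 TPM, while Ctsc itself was at 52.5. Of the 9, 4 had no value above 0.

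Promoters were compared because several of the factors just named bind known short motifs. RefSeq promoter windows on GRCm38.p6, from 250 bases before to 50 after a start, were matched for 8 of the 10 genes by 10 windows. Ctsb and Ctsh were not matched. The E-box CACGTG is the core of the site read by TFEB and its relatives. It was found in 4 of the 10 windows, for Ctsd, Ctsa, Lgmn and Ctsl, and in 7.15% of 32851 windows of the same length. Its extended form TCACGTGA was in 2 of the 10 windows, for Ctsd and Ctsa, and in 0.974% of all windows. GAGGAAGT or its reverse complement ACTTCCTC resembles sites of PU.1, the product of Spi1. It was in 2 of the 10 windows, for Ctss and Ctsc, and in 3.20% of all windows. Both strands were searched, the extended form contains the core, and GAGGAAGT overlaps neither. A match describes the letters and not binding. The 30 bases around a match follow, on the strand of the gene, with the motif in capitals: Ctsd at chr7:142387908-142387937, Ctsa at chr2:164833749-164833778, Lgmn at chr12:102439124-102439153, Ctsl at chr13:64370739-64370768, Ctss at chr3:95526773-95526802 and Ctsc at chr7:88277923-88277952.
Ctsd: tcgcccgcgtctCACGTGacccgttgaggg
Ctsa: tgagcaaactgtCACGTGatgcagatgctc
Lgmn: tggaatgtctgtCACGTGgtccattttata
Ctsl: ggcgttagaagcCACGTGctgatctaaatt
Ctss: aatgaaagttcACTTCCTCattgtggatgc
Ctsc: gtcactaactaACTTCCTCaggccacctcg

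These motifs were placed relative to the annotated start of the window that holds each. They begin at -98 in Ctsd, -12 in Ctsa, -49 in Lgmn, -236 in Ctsl, -2 in Ctss and -151 in Ctsc. The E-box of Lgmn is in its window at chr12:102439043-102439342. Another Lgmn window, at chr12:102439679-102439978, held GGGCGG and no E-box. Ctsd and Ctsa each hold a further E-box, at -245 and at 6 after the start. The stretch of Ctsd lies in the first exon of Ctsd-202, and those of Ctsa, Lgmn and Ctsl lie inside the M21 genes, that of Ctsa beyond the first exon of Ctsa-202. Genes with the E-box were spread over the order of levels, from Ctsd at 4056 TPM to Ctsl at 213, and those with the other motif were Ctss at 931 and Ctsc at 52.5. GGGCGG, the core of a GC box, was found for 6 of the 8 genes, in 6 of their 10 windows, and in 35.7% of all windows. TATAAA was found for 2 genes (Ctss and Lgmn), in 2 of the 10 windows, and in 13.6% of all windows.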

How the data were processed

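The members and gene lists were chosen with earlier results of these data known. The authors deposited, per the file headers, estimated (expected) counts, TPM and credibility bounds (a signal per gene) from alignments, in gene and transcript tables with columns as RSEM names them, and second transcript tables of estimated counts and TPM, without alignment, with columns as kallisto names them. The assembly was mm10 and the annotation M21, per the text files deposited beside the tables. The aligner, quantifier versions and strandedness were not given in the sources used here. Near-identical copies and overlapping genes may share reads.

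Counts were rounded. Only Ensembl genes entered library sizes (33825547, 54667365 and 43176007) and tests. Levels used log2(TPM + 1), and libraries were compared at a summed count of 30 or more with TMM factors and dispersions from edgeR 4.0.16 (R 4.3.3). Quantifications were compared with 0.1 added, at 5 TPM or more in either. DESeq2 1.42.0 (size factors as an alternative), Python 3.11.15, pandas 2.3.3, scipy 1.17.1, numpy 2.4.6 and matplotlib 3.10.9 were used. All 10 members are reported, and of each pathway list the up to 4 highest and 2 lowest genes by TPM. Igf2r, Ctla2a, Mki67 and the cell type markers cited were named after their values were seen. Of the listed inhibitors, 3 had no match.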

Additional observations from a re-analysis of the deposited data

How the results depend on the processing

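Of 250 values recomputed for 35 results under alternatives, 185 stayed within the limits set (1 SD, or 1.5 times for counts) and 65 moved. A change of direction was not scored separately. Those that moved include the log2 levels of all 10 genes on rescaled TPM, on TMM-scaled counts per kb and in the second quantification. These scales have other totals than deposited TPM. The order of the 10 genes and the 10 calls between libraries held under every alternative run. The share of the 10 genes in protein-coding RNA was 4.76% by estimated counts and 4.18% in the second quantification, and 3.94% to 4.05% with a library left out. Cst3 over the cysteine proteases was 0.0496 in the second quantification, 0.0130 by estimated counts and 0.0662 without Lgmn, and 0.0565 to 0.0610 with a library left out. With a library left out, 3513 (without replicate 1) to 5187 genes were called between libraries in place of 6645, with fewer samples, and 0 (without replicate 1 or without replicate 3) to 1 members ranged 1.5-fold or more. With TPM as deposited, not rescaled, 9 members and 5160 genes differed by more than 1 between the quantifications; at 1 TPM or more 646 genes did, and no member. The cause of these shifts was not tested. Depth limits the lists, where a count of 0 allows up to 0.045 TPM at 1 kb, more than it limits the 10 genes. No paired analysis was possible because the series holds 1 group.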
